A study of Mus musculus with 8 samples.

Results

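Metallothioneins are small, cysteine-rich proteins that bind zinc and copper, and the mouse genome carries their 4 genes Mt1, Mt2, Mt3 and Mt4 side by side on chromosome 8. Mt1 and Mt2 are expressed in most tissues and are induced by zinc, glucocorticoids and oxidative stress. Zinc acts on them through the transcription factor Mtf1, which binds short promoter sequences called metal response elements (MREs). Mt3 is known mainly from brain, and Mt4 from stratified squamous epithelia such as epidermis and tongue. The 4 genes, of 21882 gene symbols listed, were chosen by name because Mt4 was lower in the mutant in all 3 comparisons available. Their differences between mutant and control are therefore described here and were given no test.

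The samples were skin of C57BL/6 mouse embryos. Whole skin taken 16.5 days into gestation (E16.5) came from Cyp26b1-/- embryos and from wild-type embryos, and the 2 libraries of each genotype are pooled into 1 value. Skin taken at day 18.5 (E18.5) had been parted into dermis and epidermis, with 1 library labelled En1cre;Cyp26b1f/- (the mutant) and 1 labelled Cyp26b1f/+ (the control) for each tissue. The titles of the E18.5 libraries all bear different numbers, so dermis and epidermis cannot be taken as pairs from the same embryo. Cyp26b1 encodes an enzyme that degrades retinoic acid, and En1cre places Cre recombinase under the control of Engrailed 1, a gene active in precursors of trunk dermis among other cells. The E18.5 controls also carry the floxed allele but no En1cre in their label. The E18.5 mutants also lack 1 Cyp26b1 allele in every cell, which cannot be told apart from the loss in En1cre-expressing cells. Levels are given in FPKM, which are fragments per transcript length and library size, so they may be compared between genes. The 3 tables were normalised separately, which touches every level set across them. Read depth is unknown, and no spread between libraries could be computed.

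The tables differed in their overall shift and in their spread. The median log2((mutant + 1)/(control + 1)) was 0.43 in E16.5 skin, 0.12 in dermis and -0.18 in epidermis over genes of at least 1 FPKM in either group, and differences are given minus this median. The libraries labelled mutant were not lower in summed Cyp26b1, with 58.2 FPKM in null against 34.95 FPKM in wild-type skin at E16.5, 102 FPKM in mutant against 54.2 FPKM in control dermis, and 13.7 FPKM in mutant against 4.97 FPKM in control epidermis, so each direction rests on the labels. The tissue labels were checked against marker genes with an estimate in all tables. Summed over 5 spinous genes, epidermis held 16326 FPKM in the mutant and 17334 FPKM in the control, against 266 and 290.1 FPKM in mutant and control dermis. Only these 5 of 8 spinous genes had an estimate in epidermis. Over all 8, dermis held 1375 FPKM in the mutant and 3935 FPKM in the control, so it was not free of spinous RNA. In control dermis Krt1 was at 1446 FPKM and Krt10 at 2011 FPKM. Summed over 5 fibroblast genes, dermis held 1163 FPKM in the mutant and 536 FPKM in the control, against 3.94 and 16.0 FPKM in mutant and control epidermis. Only these 5 of 8 fibroblast genes had an estimate in dermis. Over all 8, epidermis held 62.5 FPKM in the mutant and 330 FPKM in the control. Basal keratinocyte genes went against the dermis label, because their sum over 6 genes was 3763 FPKM in mutant dermis and 12354 FPKM in control dermis, while it was 1857 and 5700.3 FPKM in mutant and control epidermis.

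The cluster spans 43.1 kb, from 96661104 to 96704227 on the plus strand of chromosome 8 (mm9), in the order Mt4, Mt3, Mt2, Mt1. Each gene has 3 exons in the GENCODE annotation of that build, and the spliced transcripts are 391 to 556 bases long. No stretch of 36 bases is shared between any 2 of these transcripts. No other place in the genome matched any of them over at least 100 bases at 90% identity or more. The identity between the full Mt1 and Mt2 transcripts was 62.4%, the highest of the 6 pairs.

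The 250 bases before the annotated starts of Mt4, Mt2 and Mt1 are shown because Mt4 defines the set and because Mt1 and Mt2 were lower together in dermis. They are RefSeq promoter windows (table build GRCm38.p6) that each matched mm9 at 1 place, at chr8:96660854-96661103, chr8:96696268-96696517 and chr8:96702739-96702988, on the plus strand, 5′ to 3′. Capitals mark MRE cores, searched as TGCACNC and TGCGCNC on both strands, with overlapping matches counted separately.

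Mt4: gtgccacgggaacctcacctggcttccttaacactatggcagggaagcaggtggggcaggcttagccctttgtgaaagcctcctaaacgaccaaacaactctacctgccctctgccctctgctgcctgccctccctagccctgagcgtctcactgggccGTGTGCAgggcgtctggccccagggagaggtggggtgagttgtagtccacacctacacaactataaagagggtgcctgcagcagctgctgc

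Mt2: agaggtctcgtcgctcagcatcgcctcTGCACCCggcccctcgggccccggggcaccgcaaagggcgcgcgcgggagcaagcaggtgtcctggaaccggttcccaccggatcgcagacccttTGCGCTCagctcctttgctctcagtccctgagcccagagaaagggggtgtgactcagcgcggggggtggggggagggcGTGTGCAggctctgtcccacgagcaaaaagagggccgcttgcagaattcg

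Mt1: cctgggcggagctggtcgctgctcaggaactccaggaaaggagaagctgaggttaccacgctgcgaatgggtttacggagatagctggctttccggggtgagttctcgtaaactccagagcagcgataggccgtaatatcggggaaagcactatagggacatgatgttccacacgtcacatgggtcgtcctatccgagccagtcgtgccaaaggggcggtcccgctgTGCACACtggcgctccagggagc

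The Mt4 window holds 1 MRE core, 91 bases before the start, and a TATA box (TATAAA) 30 bases before it. The Mt2 window holds 3 cores, and the Mt1 window holds 1. Of 32851 RefSeq promoter windows of this length, 21.4% hold at least 1 core, 1.26% at least 3, and 12.4% the sequence TATAAA. In Mt1 and Mt2 the annotated start lies before the TATA box: TATAAA begins 121 bases after the annotated start of Mt1 and 135 bases after that of Mt2, with 4 further cores in between in each gene. The Mt3 window holds no core, and 3 lie between its annotated start and a TATAAA 106 bases after it. The core of the antioxidant response element, searched as TGACNNNGC on both strands, is in the Mt2 window 79 bases before the start, where it overlaps no MRE core, and in 10.2% of all windows. A direct repeat of AGGTCA spaced by 5 bases, a form of retinoic acid response element, is in 3 of the 32851 windows and in none of the 4 metallothionein windows. Neither this repeat nor the antioxidant element was searched for after the annotated starts, where the TATAAA of Mt1, Mt2 and Mt3 lies. These matches describe letters and not bound sites.

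Mt1 and Mt2 were the most abundant metallothioneins in 5 of the 6 groups, mutant epidermis being the exception, and both stood highest in control dermis at E18.5. Mt1 was listed at 283 FPKM in Cyp26b1-/- skin and 175 FPKM in wild-type skin at E16.5. At E18.5 it was at 142 FPKM in mutant dermis against 873 FPKM in control dermis, and at 128 FPKM in mutant epidermis against 212 FPKM in control epidermis. The control dermis library stood apart from the other 5 values, which lay between 128 and 283 FPKM. In that library Mt1 ranked 79 from the top of 21694 gene symbols, against rank 615 in mutant dermis. Mt2 was listed at 111 FPKM in Cyp26b1-/- skin and 88.2 FPKM in wild-type skin, at 119 FPKM in mutant and 725 FPKM in control dermis, and at 25.9 FPKM in mutant and 149.97 FPKM in control epidermis. Mt2 was thus low in mutant epidermis and high in control dermis, with the other 4 values between 88.2 and 149.97 FPKM.

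**Figure D1:**
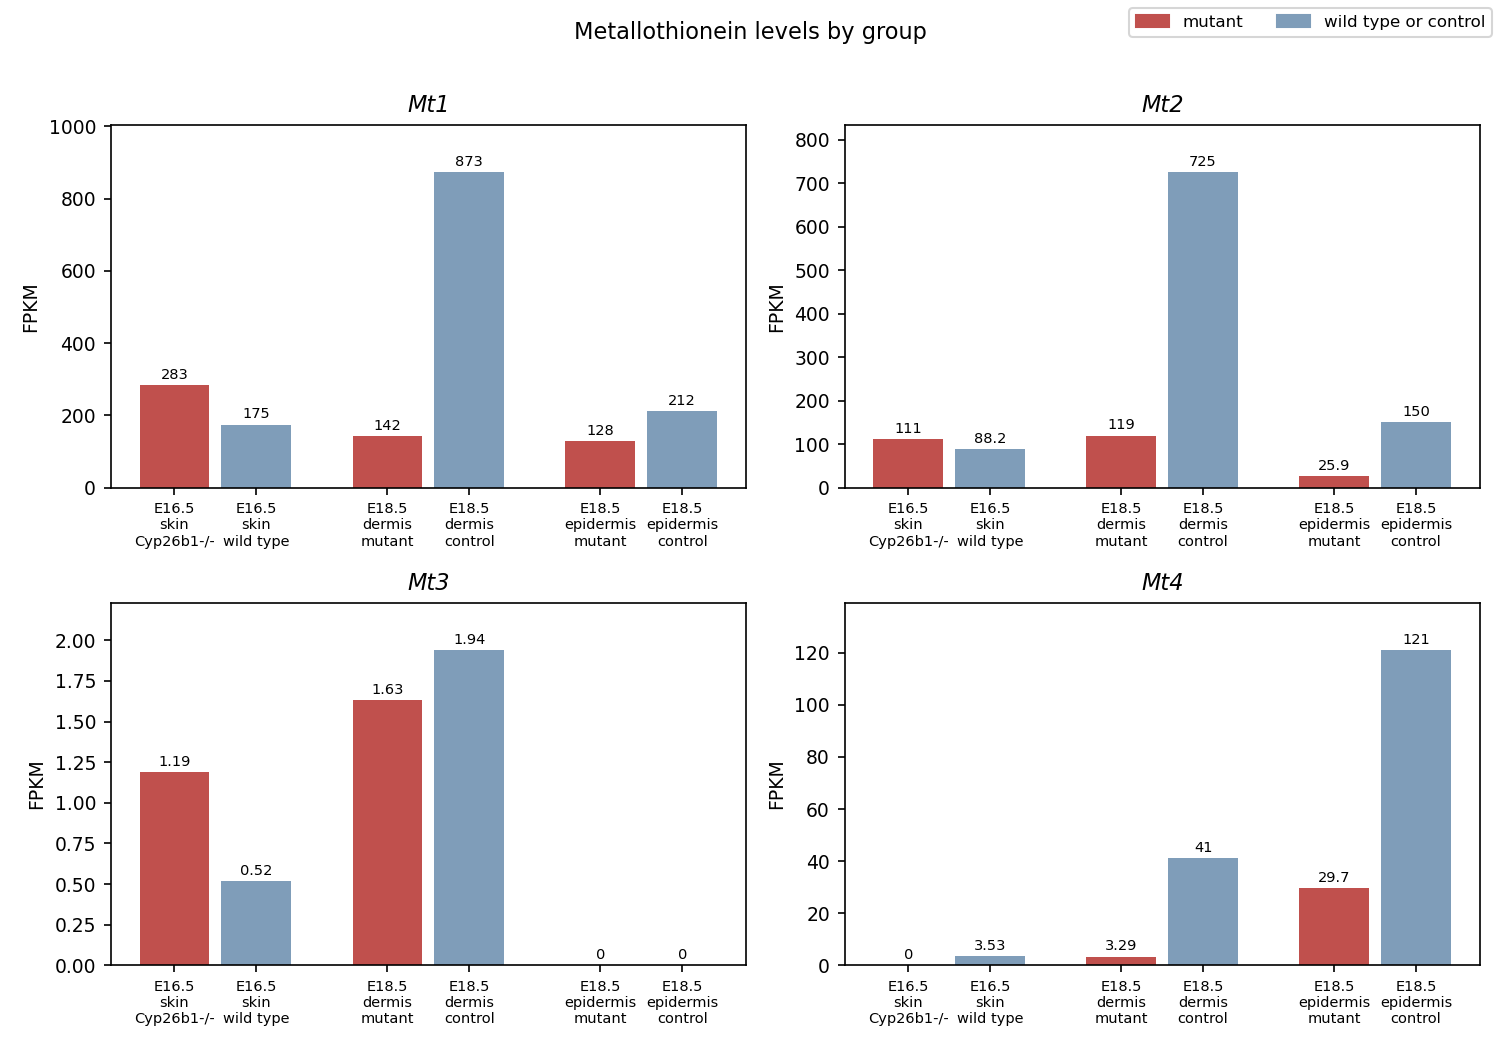
FPKM of the 4 metallothionein genes in each group, as linear bars from 0, with the mutant left of its wild type or control; E16.5 bars pool 2 libraries, E18.5 bars are 1 library each, and there are no error bars because no replicate values are given. Mt1 and Mt2 peak in control dermis at 873 and 725 FPKM, and Mt4 peaks in control epidermis at 121 FPKM.

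Mt4 was the epidermal member. It was listed at 0 FPKM in Cyp26b1-/- skin and at 3.53 FPKM in wild-type skin at E16.5. At E18.5 it was at 3.29 FPKM in mutant dermis against 41.0 FPKM in control dermis, and at 29.7 FPKM in mutant epidermis against 121 FPKM in control epidermis. In each pair the mutant value was the lower one, which is how the set was chosen. Within the same genotype Mt4 was higher in epidermis than in dermis, by 9.02-fold in the mutant libraries and 2.95-fold in the control libraries. Mt1 ran the other way between control tissues, being 4.12-fold higher in dermis, and Mt2 was 4.83-fold higher there. Between the mutant tissues Mt1 was 1.10-fold higher in dermis, whereas Mt2 was 4.61-fold higher in mutant dermis than in mutant epidermis. Mt4 was also 34.3-fold higher in control epidermis at E18.5 than in wild-type whole skin at E16.5, which differ in age and tissue.

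Mt3, the brain member, was near the bottom of the scale throughout. It was listed at 1.19 FPKM in Cyp26b1-/- skin and 0.52 FPKM in wild-type skin, and at 1.63 FPKM in mutant and 1.94 FPKM in control dermis. Both epidermis libraries listed it at 0 FPKM. The order Mt1, Mt2, Mt4, Mt3 held in 4 of the 6 groups. In Cyp26b1-/- skin Mt3 stood above Mt4, and in mutant epidermis Mt4 at 29.7 FPKM stood above Mt2 at 25.9 FPKM.

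In dermis, 3 of the 4 genes were lower in the mutant by more than 2-fold relative to the median gene. The log2 difference of Mt1 was -2.74 and that of Mt2 -2.72, and that of Mt4 was -3.41. Among 13398 genes of at least 1 FPKM, 0.709% had a lower value than Mt1, 0.739% than Mt2 and 0.403% than Mt4. The dermis table had wide differences in general: 13.9% of its genes were lower and 14.0% higher by 2-fold. Because the genes were chosen on these contrasts, nothing is read from their count against that share. In the authors' deposited table the log2 fold of Mt1 was -2.62 with an SE of 0.69 implied by the test statistic, and that of Mt2 was -2.60 with an SE of 0.68. This SE is that of the Cuffdiff model and not a spread between animals. The log2 fold of Mt4 in the authors' deposited table was -3.64 (implied SE 1.12), and that of Mt3 was -0.25 (implied SE 1.38).

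In epidermis, Mt2 and Mt4 were lower in the mutant by more than 2-fold and Mt1 was not. Relative to the median gene the log2 differences were -2.31 for Mt2, -1.81 for Mt4 and -0.54 for Mt1, where 4.86% of 11362 genes were lower by 2-fold. Of those genes, 0.396% had a lower value than Mt2, 0.889% than Mt4 and 16.2% than Mt1. The log2 folds in the authors' deposited table were -2.54 for Mt2 (implied SE 0.51), -2.03 for Mt4 (implied SE 0.56) and -0.72 for Mt1 (implied SE 0.48). Mt1 and Mt2 therefore parted in epidermis: Mt1 was 4.96 times Mt2 in the mutant library and 1.41 times Mt2 in the control library. In dermis their ratio was 1.19 in the mutant and 1.20 in the control, with both levels 6.16-fold and 6.08-fold apart between mutant and control. The deposited log2 fold of Mt2 minus that of Mt1 was -1.81 in epidermis (implied SE 0.71, taking both as independent) and 0.02 in dermis (implied SE 0.97). At E16.5 the ratio of Mt1 to Mt2 was 2.55 in Cyp26b1-/- skin and 1.98 in wild-type skin.

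**Figure D2:**
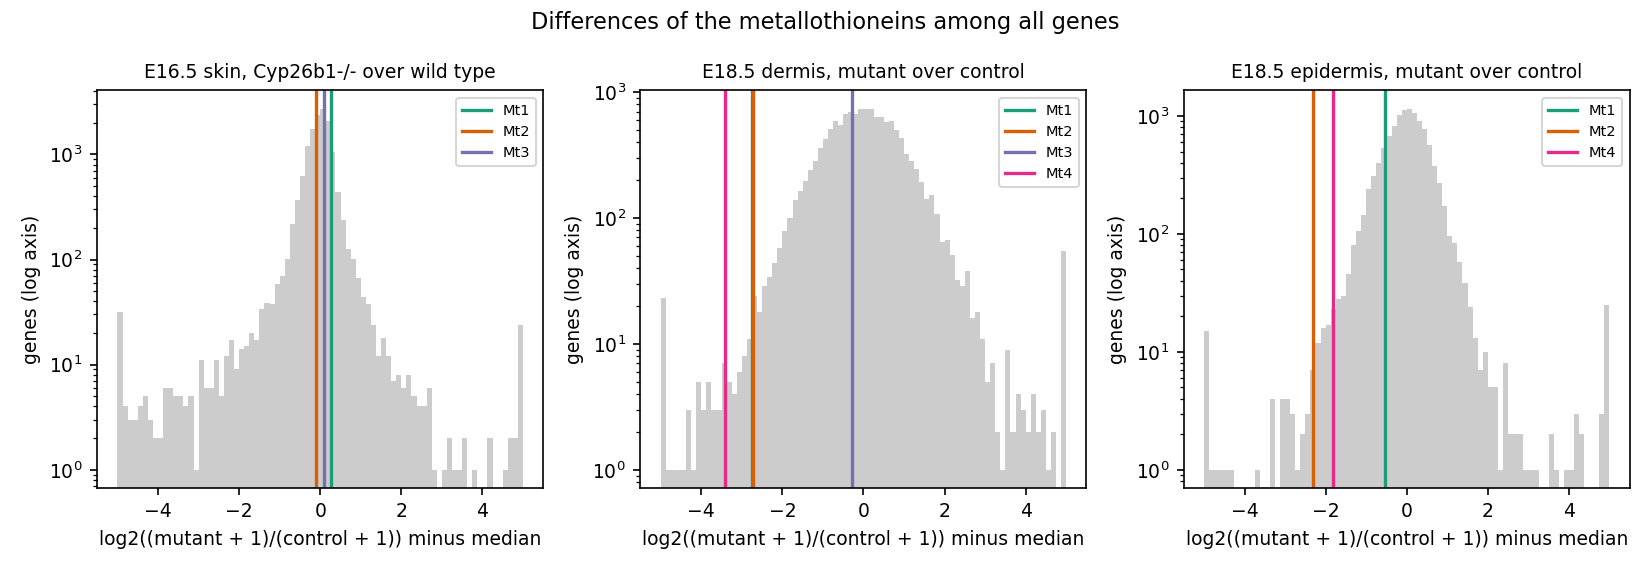
Number of genes (log axis) by log2((mutant + 1)/(control + 1)) minus the median gene, for genes of at least 1 FPKM in either group, with values beyond 5 placed in the end bins; coloured lines mark the metallothioneins, and Mt4 in E16.5 skin and Mt3 in epidermis are left out because they are listed at 0. In dermis the Mt1 and Mt2 lines coincide at -2.74 and -2.72, in epidermis Mt1 stands apart at -0.54, and in E16.5 skin Mt1, Mt2 and Mt3 lie at 0.27, -0.10 and 0.10.

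At E16.5, Mt1, Mt2 and Mt3 differed less between null and wild-type skin than Mt1 and Mt2 did in dermis, and Mt4 was listed at 0 in the null skin. The log2 differences relative to the median were 0.27 for Mt1, -0.10 for Mt2 and 0.10 for Mt3. Of 14154 genes, 85.2% had a lower value than Mt1, 36.4% than Mt2 and 65.2% than Mt3. On the authors' scaling, with no median subtracted, they were 0.69, 0.33 and 0.53, so the sign for Mt2 depends on the scaling. The sign for Mt3 depends on the pseudocount, and its difference was 0.59 with a pseudocount of 0.1 FPKM and -0.15 with 5 FPKM. The authors' deposited table gave log2 folds of 0.70 for Mt1 (implied SE 0.14), 0.33 for Mt2 (implied SE 0.16) and 1.19 for Mt3 (implied SE 0.63). At this age 2.85% of these genes were lower and 1.67% higher by 2-fold relative to the median. No fold is given for Mt4, because its mutant value is 0 and the table holds no counts.

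Of the 3 nearest genes on each side of the cluster, 5 in all were at 1 FPKM or more, and in dermis 1 of these was lower and 1 higher by 2-fold relative to the median gene, where 13.9% of all genes were lower and 14.0% higher. None passed 2-fold in E16.5 skin or in epidermis. On the Mt4 side, Bbs2, a gene of ciliary transport, had log2 differences of 0.60 in dermis and 0.43 in epidermis, and Ogfod1 had 0.59 and 0.05. Nudt21, a subunit of the pre-mRNA cleavage complex, was lower in dermis at -1.06, with 36.7 FPKM in the mutant and 71.3 FPKM in the control, and was at -0.32 in epidermis. With no median subtracted its dermal difference was -0.94 and no longer past 2-fold. On the Mt1 side, Nup93, a nuclear pore subunit that starts 34.3 kb beyond the end of the cluster, was higher in dermis at 1.40, with 23.2 FPKM in the mutant and 7.45 FPKM in the control, and at 0.11 in epidermis. Herpud1, an endoplasmic reticulum stress gene, had 0.57 in dermis and 0.53 in epidermis. Slc12a3, a kidney salt transporter, was at most 0.04 FPKM in any group. At E16.5 the 5 flanking genes with at least 1 FPKM had log2 differences from -0.30 to 0.30, relative to the median gene.

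**Figure D3:**
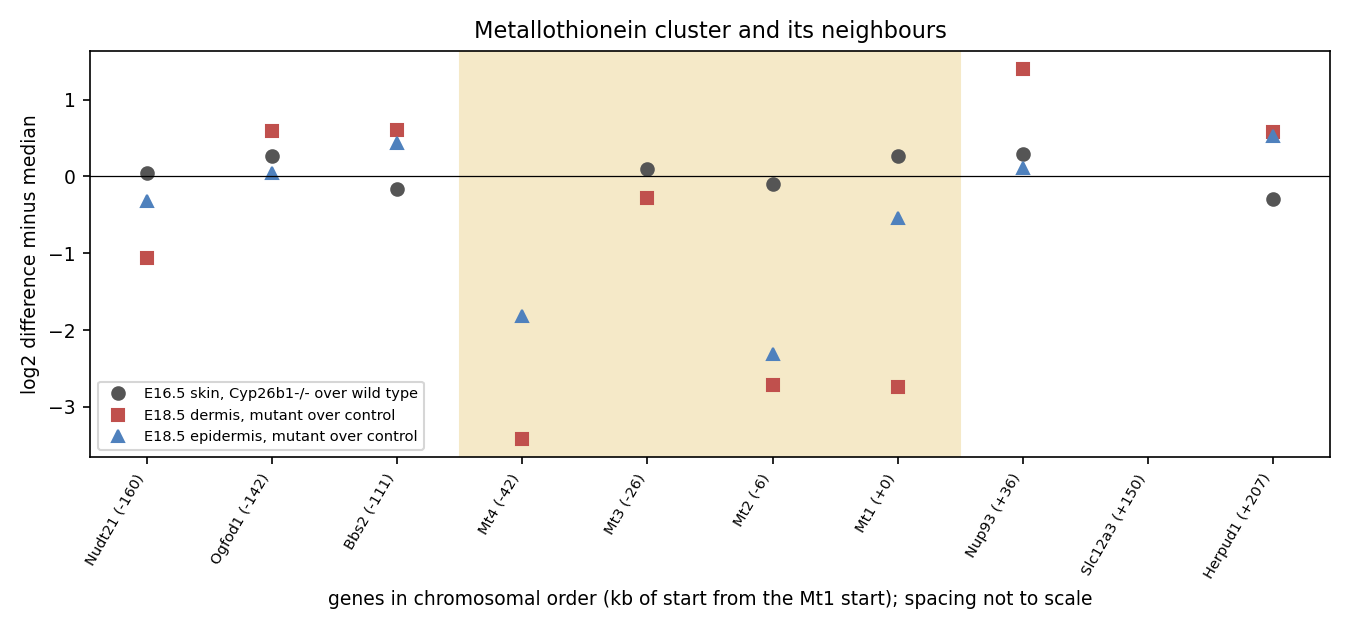
Log2((mutant + 1)/(control + 1)) minus the median gene for the metallothioneins (shaded) and the 3 nearest genes on each side, in chromosomal order with the distance of each start from the Mt1 start in kb; circles are E16.5 skin, squares dermis and triangles epidermis, and genes under 1 FPKM, and Mt4 in E16.5 skin, which is listed at 0 in the null, have no point. In dermis Mt1, Mt2 and Mt4 lie between -3.41 and -2.72, while Nup93 next to the cluster is at 1.40.

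Markers of other cell types moved with the metallothioneins in several libraries, and bulk levels cannot tell fewer cells of a type from less RNA per cell. In dermis, 7 of 7 basal, 8 of 8 spinous and 7 of 7 granular keratinocyte genes of at least 1 FPKM were below the median gene, and their list medians were -1.51, -1.42 and -1.86. The spinous count depends on the scaling. Krtdap was at 107 FPKM in mutant and 98.7 FPKM in control dermis, a difference of -0.002 (0.12 with no median subtracted). Calm4, also spinous, was at -0.27. Krt5, a basal keratin, was at 1806 FPKM in mutant dermis and 6265 FPKM in control dermis, and Krt10, a spinous keratin, at 578 FPKM in mutant and 2011 FPKM in control dermis. The Mt1, Mt2 and Mt4 differences were lower than each of these 3 medians. The lowest single marker of the 3 lists was the granular gene Cdsn at -2.64, near the values of Mt1 and Mt2. The relation of the metallothionein differences to keratinocyte content was not tested. Skeletal muscle genes were higher in mutant dermis, with a sum over 7 genes of 3127 FPKM in the mutant and 1403 FPKM in the control. Of 8 fibroblast genes 5 had an estimate in dermis, with a list median of 0.95; 4 were above the median gene and 2 of them by 2-fold. Dcn, a matrix proteoglycan, was at 358 FPKM in the mutant and 53.8 FPKM in the control, while Twist2, a transcription factor of dermal cells, was at 312 FPKM in the mutant and 387 FPKM in the control (-0.43). None of the keratinocyte and fibroblast markers with an estimate in all tables was at 0 in either dermis library.

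In epidermis the marker lists split. Basal keratinocyte genes were lower, with 7 of 7 below the median gene and a list median of -1.17. Spinous genes had a median of -0.15. Granular genes were higher, with 6 of 6 above the median gene and a list median of 0.60. Only these 6 of 8 granular genes had an estimate in epidermis, and the granular gene Lor was not among them. Krt5 was at 704 FPKM in mutant and 2634 FPKM in control epidermis, whereas Ivl, an envelope precursor of the upper layers, was at 709 FPKM in the mutant and 334 FPKM in the control. Mt4 was lower in the same mutant library in which these 6 granular genes were higher. Fibroblast genes, of which 6 of 6 of at least 1 FPKM were lower by 2-fold, summed over all 8 to 62.5 FPKM in mutant and 330 FPKM in control epidermis. The largest was Col1a1, at 27.7 FPKM in mutant and 149 FPKM in control epidermis. Over the 5 with an estimate in all tables the sum was 3.94 FPKM in mutant and 16.0 FPKM in control epidermis. Their part in the Mt1 and Mt2 values was not tested.

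At E16.5 the granular genes were the keratinocyte list with the lowest median, -2.84, and 5 of 7 tested fell. Here fell and rose refer to the authors' Cuffdiff statistic recomputed after subtracting the median fold, with Benjamini-Hochberg adjustment at 0.05 over all tested transcripts. By that test 9.96% of 16263 tested genes fell and 8.15% rose, whereas the authors' own calls were 3.44% lower and 54.7% higher. The authors called 4 of the 7 granular genes lower. Casp14 fell only relative to the median gene, with 150.91 FPKM in null and 150.76 FPKM in wild-type skin. Summed over 6 granular genes other than Lor, null skin held 243 FPKM and wild-type skin 698 FPKM, beside the 0 and 3.53 FPKM of Mt4. Lor, the most abundant of the 7, did not fall, with 2434 FPKM in null and 2519 FPKM in wild-type skin. With Lor the sum was 2678 FPKM in null and 3217 FPKM in wild-type skin. Beside the Mt3 values in null skin, 5 of 6 neuronal genes rose, with a sum of 44.5 FPKM in null and 20.6 FPKM in wild-type skin. Of these, Elavl4 did not pass the recomputed test. It was counted by the authors' own call, which stood for transcripts at 0 FPKM in 1 group. Astroglia and neural progenitor genes did not share this: 0 rose and 0 fell of 6 tested, with a list median of -0.13. Eye lens genes summed to 1698 FPKM in null and 65.3 FPKM in wild-type skin, and retina genes to 17.0 and 0.52 FPKM in null and wild-type skin. The part of these other cell types in the Mt3 values was not tested.

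**Figure D4:**
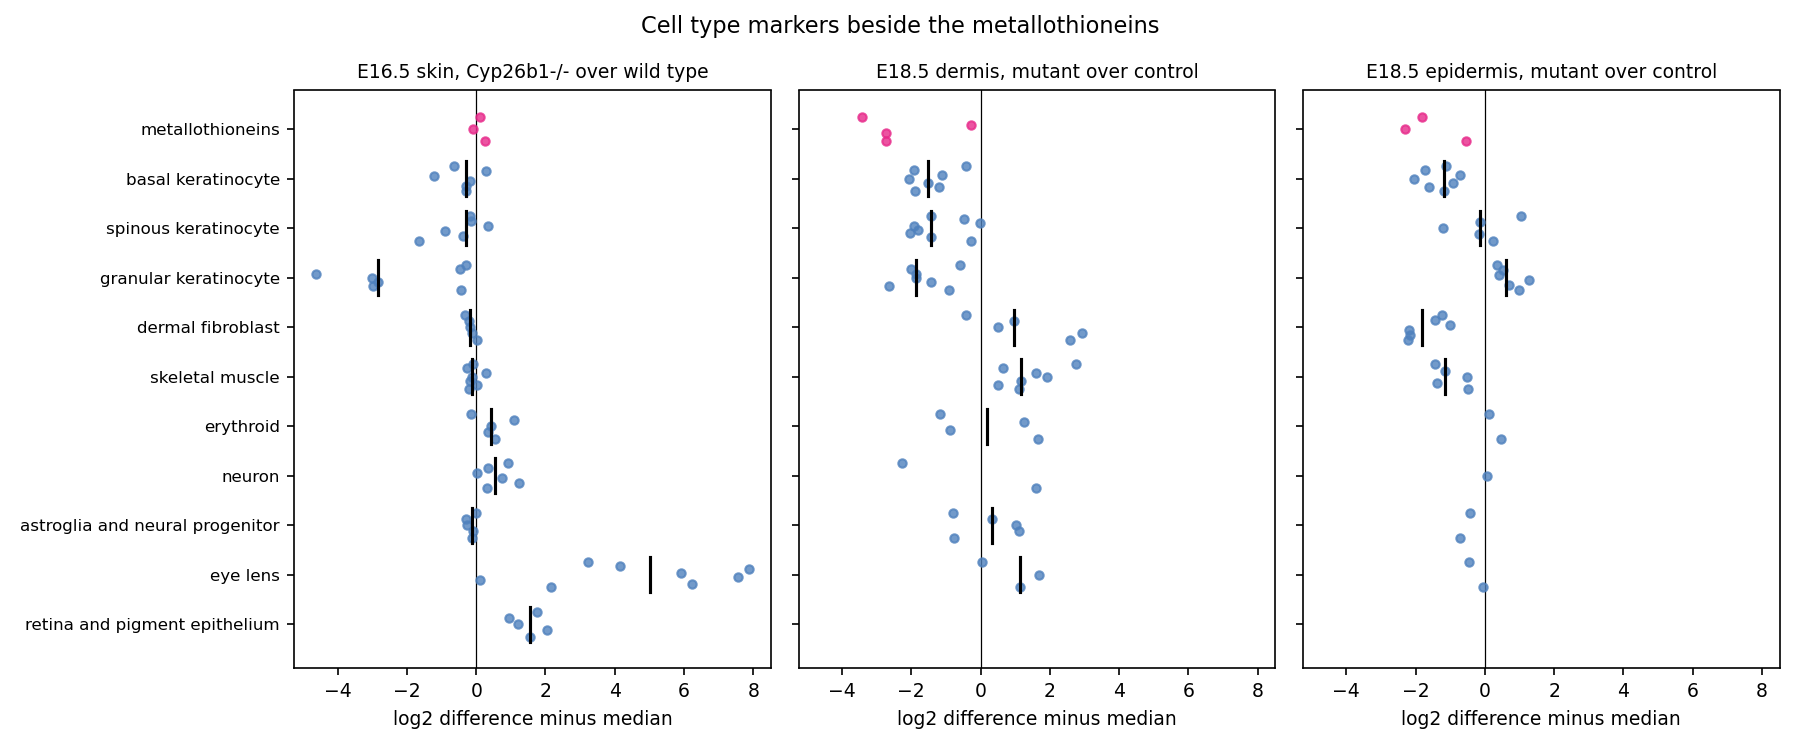
Log2((mutant + 1)/(control + 1)) minus the median gene for each metallothionein and each cell type marker of at least 1 FPKM in either group, with 1 point per gene and a black bar at the median of lists with more than 2 points. Keratinocyte lists lie below 0 in dermis with medians of -1.51, -1.42 and -1.86, and granular genes lie above 0 in epidermis with a median of 0.60.

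Genes that handle zinc were compared as a group of 24, the exporter family Slc30 and the importer family Slc39. For this list and those that follow, 8.15% of all tested genes rose and 9.96% fell at E16.5. By 2-fold, 14.0% of all genes were higher and 13.9% lower in dermis, and 3.49% and 4.86% in epidermis. With so few genes per list, no count is read as a result about the list. In E16.5 skin 1 rose and 1 fell of 21 tested, with a list median of 0.03 relative to the median gene. Slc39a8, an importer of zinc and manganese, fell, with 10.9 FPKM in null skin against 23.4 FPKM in wild-type skin and a log2 difference of -1.46 over its 3 transcripts. Slc39a6, another zinc importer, rose, with 58.8 FPKM in null skin against 25.04 FPKM in wild-type skin and a log2 difference of 0.77 (deposited fold minus the median 0.76, implied SE 0.14). In dermis, 1 was higher and 3 lower by 2-fold of 18 of at least 1 FPKM, with a list median of -0.27 (-0.15 with no median subtracted). Slc39a8 was at 2.42 FPKM in mutant and 20.1 FPKM in control dermis, a log2 difference of -2.75. Slc30a1, the plasma membrane zinc exporter and a known Mtf1 target, was at 2.38 FPKM in mutant and 8.62 FPKM in control dermis (-1.63). Slc39a10, an importer, was at 3.37 FPKM in mutant and 8.99 FPKM in control dermis (-1.32), and the Golgi transporter Slc30a6 was at 9.22 FPKM in the mutant and 2.88 FPKM in the control (1.27). In epidermis 0 were higher and 1 lower by 2-fold of 17. That gene was again Slc39a8, at 3.17 FPKM in mutant and 13.2 FPKM in control epidermis (-1.59). Slc30a1 did not share its dermal value there, with 16.7 FPKM in the mutant and 16.5 FPKM in the control.

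Of 6 regulators of metallothionein genes, 0 rose and 1 fell in E16.5 skin. The gene that fell was Stat3, a cytokine-activated factor, with 39.3 FPKM in null and 33.3 FPKM in wild-type skin (log2 difference -0.20 relative to the median gene, 0.23 on the authors' scaling, where it was not called lower). Stat3 has 3 transcripts, and a call needs only 1 or more of them, so it need not hold for this summed level. Mtf1, the metal sensor, was at 7.06 FPKM in null and 4.28 FPKM in wild-type skin, 3.02 FPKM in mutant and 3.10 FPKM in control dermis, and 2.41 FPKM in mutant and 2.95 FPKM in control epidermis. Relative to the median gene its log2 differences were 0.18, -0.15 and -0.03 in skin, dermis and epidermis. In dermis 1 regulator was higher by 2-fold and 0 lower. Nfe2l2, which encodes the antioxidant response factor Nrf2, was at 18.6 FPKM in mutant and 6.39 FPKM in control dermis (1.28), and at 5.13 FPKM in mutant and 6.44 FPKM in control epidermis (-0.10). The glucocorticoid receptor gene Nr3c1 was at 5.91 FPKM in mutant and 3.94 FPKM in control dermis.

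Of 12 copper genes, 1 rose and 0 fell of 11 tested at E16.5. The gene that rose was the copper importer Slc31a1, with 55.6 FPKM in null and 28.8 FPKM in wild-type skin (0.50; deposited fold minus the median 0.48, implied SE 0.14). In dermis 1 was higher and 3 lower by 2-fold of 10, against 14.0% and 13.9% of all genes, and in epidermis 0 and 0 of 10. Sco2 and Cox17, which deliver copper to cytochrome c oxidase, were lower in dermis, with 3.90 FPKM in the mutant and 23.9 FPKM in the control for Sco2 (-2.47) and 82.7 and 191 FPKM in mutant and control for Cox17 (-1.32). The copper chaperone Atox1 was at 294 FPKM in mutant and 581 FPKM in control dermis (-1.10), and Slc31a2, a copper transporter, at 30.6 FPKM in mutant and 7.99 FPKM in control dermis (1.69).

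Of 12 iron genes, 3 rose and 2 fell in E16.5 skin. Slc25a37, the mitochondrial iron importer of erythroid cells, rose the most, with 111 FPKM in null and 18.4 FPKM in wild-type skin (2.11; deposited fold minus the median 2.12, implied SE 0.15). The transferrin receptor gene Tfrc rose with 53.6 FPKM in null and 22.2 FPKM in wild-type skin (0.80), and Ncoa4, a receptor for ferritin breakdown, with 115 and 46.7 FPKM in null and wild-type skin (0.86). Beside these, the sum of 6 erythroid genes was 11807 FPKM in null and 6480.2 FPKM in wild-type skin, and its part was not tested. In dermis 2 iron genes were higher and 1 lower by 2-fold of 12, and in epidermis 1 was higher and 2 lower of 11. With no median subtracted, 0 were higher in epidermis. Ireb2, an iron sensor, was lower in both E18.5 tissues, at 0.91 FPKM in mutant and 3.49 FPKM in control dermis and at 0.36 FPKM in mutant and 2.12 FPKM in control epidermis. The ferritin chain gene Ftl1 was at 61.5 FPKM in mutant and 179 FPKM in control epidermis (-1.35). Ferritin genes have pseudogene copies that may share reads, so their values are uncertain.

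Of 18 genes of the Nrf2 and thiol redox list, 2 rose and 4 fell of 16 tested at E16.5. Osgin1 rose, with 11.2 FPKM in null and 2.53 FPKM in wild-type skin (1.36). Hmox1, the haem-degrading enzyme, fell relative to the median gene, with 34.0 FPKM in null and 42.3 FPKM in wild-type skin (-0.74; deposited fold minus the median -0.79, implied SE 0.15), but was not called lower by the authors. In dermis 2 were higher and 1 lower by 2-fold of 17: G6pdx at 21.8 FPKM in the mutant and 7.08 FPKM in the control, Nqo1 at 2.09 and 0.24 FPKM in mutant and control, and Gpx1 at 317 and 649 FPKM in mutant and control. In epidermis 1 was higher, Osgin1 (1.27), and 1 lower, Prdx1 (-1.19), of 16. Of 12 glucocorticoid response genes, 2 rose and 4 fell at E16.5, where Errfi1 rose (0.78) and Pdk4 fell (-0.86). In dermis 0 were higher and 0 lower by 2-fold of 11, and in epidermis 1 was higher and 0 lower of 9. That gene was Fkbp5, a classic glucocorticoid target, with 92.4 FPKM in mutant and 49.6 FPKM in control epidermis (1.06). With no median subtracted it was at 0.88 and 0 genes of the list were past 2-fold. Of the 9, 8 lay above the median gene, with a list median of 0.61 (0.43 with no median subtracted).

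Over the 84 genes of these 6 lists, 9 rose and 12 fell of 78 tested at E16.5, which is 11.5% and 15.4%, against 8.15% and 9.96% of all tested genes. By the authors' own calls 46 were higher and 2 lower, so most calls of a fall rest on subtracting the median. In dermis 7 were higher and 8 lower by 2-fold of 74, or 9.46% and 10.8%, against 14.0% and 13.9% of all genes. In epidermis 3 were higher and 4 lower of 69, or 4.35% and 5.80%, against 3.49% and 4.86% of all genes. The medians of the 84 genes were 0.03, -0.05 and 0.14 in skin, dermis and epidermis, where the median of all genes is 0 by construction.

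**Figure D5:**
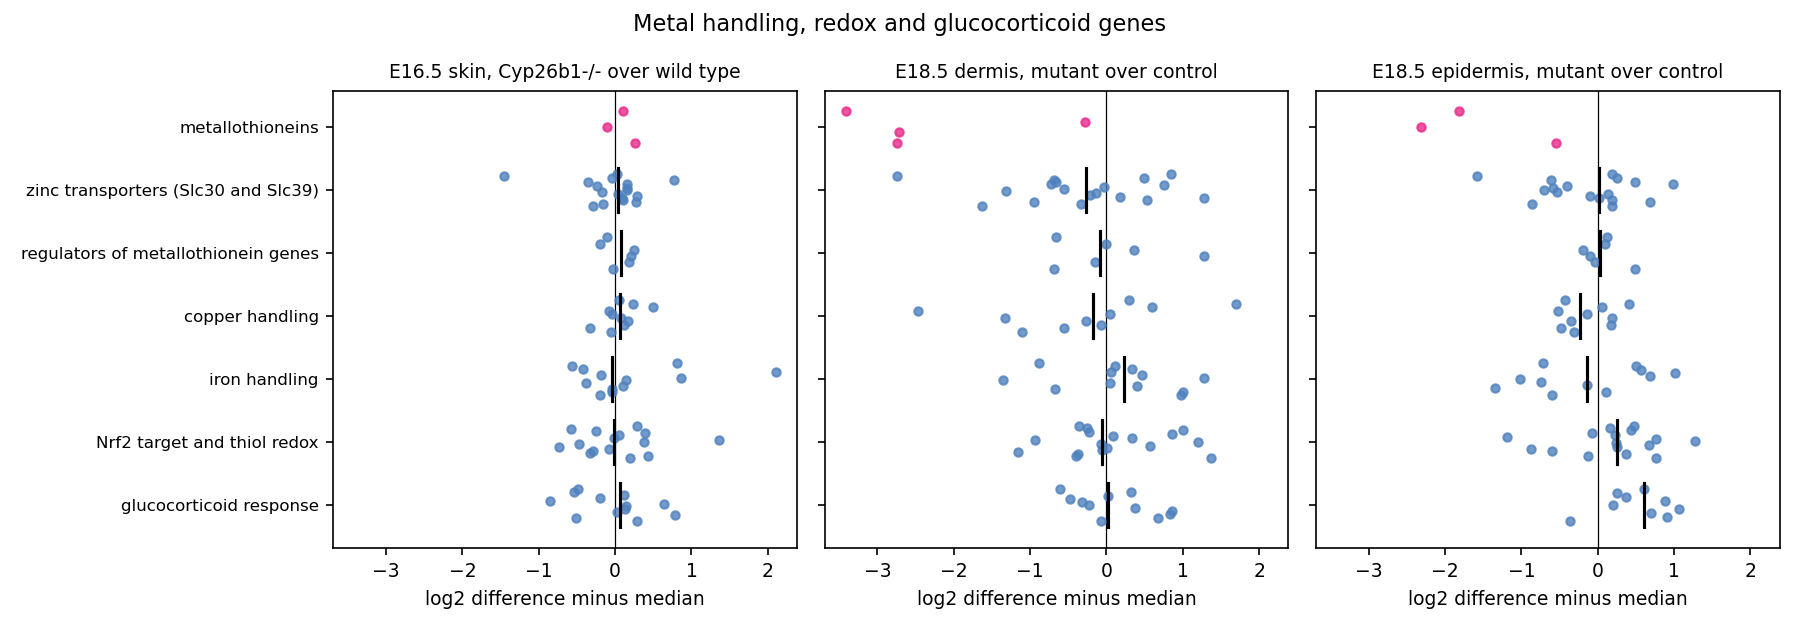
Log2((mutant + 1)/(control + 1)) minus the median gene for each metallothionein and each gene of the 6 lists of at least 1 FPKM in either group, with 1 point per gene and a black bar at each list's median. In dermis Mt1, Mt2 and Mt4 lie at -2.74, -2.72 and -3.41, near Slc39a8 at -2.75, while the list medians lie between -0.27 and 0.22.

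The genes whose levels across the 6 groups were most like each member were found by the distance between log2(FPKM + 1) values centred on each gene. For Mt2 the nearest were Ltc4s, Apoe, Mafa, Krt5 and Lmo1, at distances of 0.82 to 1.25, where the length of the Mt2 pattern itself was 3.42. Apoe, a lipid carrier, was at 441 FPKM in mutant and 2149 FPKM in control dermis and at 77.8 FPKM in mutant and 253 FPKM in control epidermis. For Mt1 the nearest were Adrb3, Trim56, the copper gene Sco2, Hist1h4a and Hist1h3e, at distances of 0.50 to 0.63 with a pattern length of 2.26. The histone genes have near-identical copies and are uncertain. Adrb3 was at 6.48 FPKM in control dermis and at 0.17 to 1.05 FPKM in the other groups, and Hist1h3e at 7.66 and 0.27 to 1.85 FPKM. At such low levels the likeness rests mainly on the 1 control dermis library. For Mt4 the nearest were Gpt, Nrtn, Krt79, Egr3 and Pou3f1, at 2.61 to 2.98 with a pattern length of 5.77. Krt79, a keratin, was at 146 FPKM in mutant and 721 FPKM in control dermis and at 164 FPKM in mutant and 586 FPKM in control epidermis. Nrtn and Egr3 were higher in mutant epidermis, unlike Mt4, at 201 and 124 FPKM in the mutant and 148.5 and 75.8 FPKM in the control. Gpt and Pou3f1 were lower there, at 144 and 46.8 FPKM in the mutant and 189 and 51.9 FPKM in the control. Mt1 and Mt2 lay at a distance of 1.75 from each other, and Mt4 lay 5.79 from Mt1 and 6.11 from Mt2, about as far as the length of its own pattern.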

How the data were processed

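RNA was extracted with Trizol and sequenced from Illumina TruSeq libraries, per the labels' protocols. Per the submitters' processing notes, the tools were Cuffdiff 1.3.0, Cufflinks, TopHat 1.3.2 and Bowtie 0.12.7.0, and the build was mm9; strand handling is not given in the sources used here. Deposited by the authors per RefSeq transcript, FPKM values are written to 2 decimals; E16.5 columns pool 2 libraries, per the file headers. The E18.5 headers give no number; the labels used here list 1 library per group, although the design text speaks of duplicates. The log2 fold, the signed fold and the test statistic, a score whose sign is opposite to the fold, were deposited by the authors without a pseudocount, beside a p-value and a q-value. The implied SE is the fold divided by the statistic; between a normal p of the statistic and the deposited p-value the gap never passed 0.00441.

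Transcripts were summed per symbol, and symbols with a failed estimate were left out. Differences used a pseudocount of 1 FPKM and genes of at least 1 FPKM, which understates changes of low genes, and calls in E18.5 used a 2-fold difference with no p-value, because each group was 1 library. For E16.5 the deposited statistic was recomputed after subtracting the median log2 fold (0.47), and p-values of all tested transcripts were adjusted by Benjamini-Hochberg with a threshold of 0.05. Where 1 group was at 0 FPKM the authors' own call stood. Genes needed 1 or more called transcripts in a direction, with none opposite. The procedure was tested on simulated data. Whether the 2 libraries of a group are different animals is not in the labels, so the test may measure technical spread. File starts were raised by 1, after which 4 of 4 members matched the GENCODE starts. Members and gene lists were chosen with earlier results of these data known. Genes named were the members, the 3 nearest genes on each side, the 5 nearest in pattern and up to 4 of each list with the largest difference; Krt10, Dcn, Twist2, Ivl, Nr3c1 and 3 further genes around the cluster were picked as examples after their values were seen. Some genes that the rule or the region holds are not reported here. Python 3.11.15, pandas 2.3.3, scipy 1.17.1 and BLAST+ 2.17.0 were used.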

Additional observations from a re-analysis of the deposited data

How the results depend on the processing

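No paired analysis was possible because the E16.5 tables hold 1 pooled column per group, and for the same reason no library could be left out. In E18.5 each group is 1 library. Of the alternatives to the differences of the members, only the scaling moved a value by more than its implied SE: with no median subtracted, Mt1 and Mt2 at E16.5 were 0.69 and 0.33, against 0.27 and -0.10. Pseudocounts of 0.1 and 5, the highest transcript of each symbol, no filter and a minimum of 5 FPKM moved none by that much, Mt4 at E16.5 not included. With the authors' calls, 46 list genes rose and 2 fell at E16.5 in place of 9 and 12, and 8895 of all genes rose and 560 fell in place of 1325 and 1619. In epidermis with no median subtracted, 1 list gene in place of 3 and 260 genes in all in place of 396 were higher by 2-fold, and 915 in place of 552 were lower. With a pseudocount of 0.1, 8 list genes in place of 4 and 1394 genes in all were lower. Read depth is unknown, so no counting error can be given for the low values of Mt3 and Mt4.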

Other observations

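Other genes around the cluster included Gnao1, a G protein subunit, which was at 6.61 FPKM in mutant and 3.21 FPKM in control dermis (0.73). Cpne2 and Fam192a had log2 differences relative to the median gene of 0.49 and 0.18 in dermis and of -0.47 and 0.34 in epidermis. The pattern of Mt3 is the flattest of the 4 members on the log2(FPKM + 1) scale, with a length of 1.53. Among the genes nearest to it were Cep164 at a distance of 0.16, Cherp at 0.18, Xrcc1 at 0.24 and Atxn7l2 at 0.25. Mt3 was at most 1.94 FPKM in any group, so the pseudocount of 1 FPKM bears on its length and on these distances.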
